A study of Quercus lobata with 12 samples.

Results

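In leaves of valley oak (Quercus lobata) seedlings, 422 of 39373 genes in the count table (1.07%) had higher levels in both YORK-09 seedlings whose RNA was extracted on day 16 than in any of the other 10 seedlings. These genes were chosen by their measured values. Levels are given as CPM, the count of a gene after the counts of each seedling were scaled to a total of 1000000. A gene became a member when the lower CPM of YORK-09-03 (control) and YORK-09-08 (treated with 5-Azacytidine) was at least 1 and at least 1.5 times the highest CPM among the other 10. The difference between the day-16 seedlings and the rest is therefore given as a description, with no test. Of the 18783 genes with at least 1 CPM in both day-16 seedlings, the members made up 2.25%.

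The seedlings were 5 months old at the start of the experiment and came from 3 maternal families (named YORK-09, LAY-15 and HV-11) whose acorns were collected from wild trees. In each family, leaf RNA was read from 2 control and 2 treated seedlings. Treated seedlings received foliar 50 µM 5-Azacytidine in a surfactant for 27 days, and controls received the surfactant alone, so all 12 seedlings had been sprayed. RNA was extracted on days 16, 19 and 30 of the same month, long after the leaves had been collected together and frozen, and each family and extraction day holds 1 control and 1 treated seedling. HV-11 and LAY-15 were extracted on days 19 and 30, and YORK-09 on days 16 and 30, with no other family on day 16. Day 16 can be set against another day only within YORK-09, and the extraction day and the 2 plants extracted on it cannot be told apart.

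A maternal family of an outcrossing oak shares the mother tree, while the pollen parents may differ, so its seedlings are related but not identical. The RNA of a leaf is drawn from epidermis, photosynthetic tissue and veins in 1 extract, and its makeup reflects the state of the leaf when it was frozen as well as how well each RNA survived and was recovered in the extraction. In such bulk samples, more cells of a type and more RNA per cell cannot be told apart. 5-Azacytidine is a cytosine analog that is built into new DNA and traps the enzymes that methylate it. The table gives each gene an identifier but no name, and the RefSeq genes of the species matched 0 identifiers. Members are therefore given by identifier with no function, and the leaf label was not checked against marker genes.

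The depth was similar throughout, with totals of 9926728 to 11570198 counts and 25687 to 27483 genes detected per seedling. No column repeated another, since the chi-square between the counts of 2 seedlings was 33.2 to 189 times its degrees of freedom over the 66 comparisons. The 10 most counted genes held 7.25% of the counts in YORK-09-03 and 5.27% in YORK-09-08, 6.001% in HV-11-40 and 8.37% to 11.7% in the other 9 seedlings. Another pair also stood apart. The same rule, applied to each of the 6 pairs of seedlings that share a family and a day, found 976 genes for LAY-15 on day 19, 142 for HV-11 on day 30, 43 for LAY-15 on day 30, 28 for YORK-09 on day 30 and 23 for HV-11 on day 19. The day-16 set of 422 was thus the larger of the YORK-09 sets and smaller than that of LAY-15 on day 19. When both LAY-15 seedlings of day 19 were left out of the rule, 490 genes were found in place of 422.

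**Figure D1:**
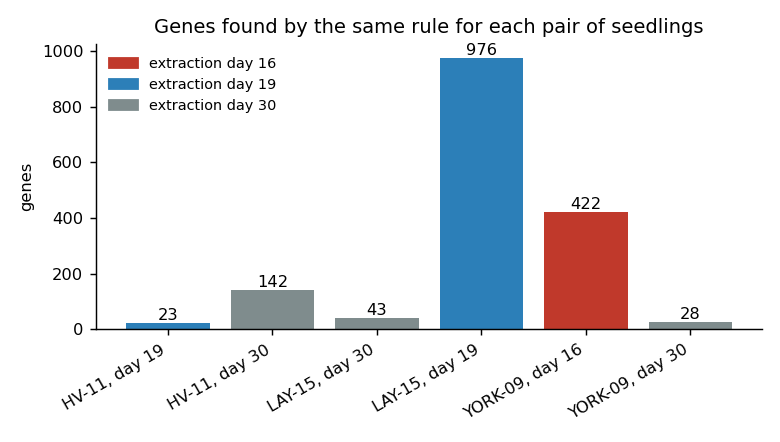
Number of genes (vertical axis) found when the rule was applied to each pair of seedlings of 1 family and 1 extraction day (bars, coloured by day). LAY-15 on day 19 had 976 genes, YORK-09 on day 16 had 422, and the other 4 pairs had 23 to 142.

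The members took up 2.301% of all counts in YORK-09-03 and 1.99% in YORK-09-08. Their summed level was 23008 CPM and 19884 CPM in these 2 seedlings. In the other 10 it ran from 2867 CPM in LAY-15-34 to 6811 CPM in HV-11-40. The sums of the YORK-09 seedlings of day 30, 5177 CPM in YORK-09-10 and 4952 CPM in YORK-09-37, lay inside the range of the other families. With TMM scaling, which uses factors of 1.04 for YORK-09-03 and 1.18 for YORK-09-08, the day-16 sums were 22058 and 16815 against 3264 to 6431 in the rest. The median member was at 20.4 CPM in YORK-09-03 and 18.4 CPM in YORK-09-08, and at 1.36 CPM (LAY-15-30) to 3.68 CPM (HV-11-40) in the others.

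Most members passed the rule by a modest margin. The ratio of the lower day-16 level to the highest of the other 10 had a median of 1.93, and 230 members had a ratio under 2, while 192 reached 2 and 70 reached 3. With the level in the other seedlings set to no less than that of 3 counts, 17 members reached a ratio of 5 and 4 reached 10. The smallest ratio, 1.503, belonged to QL12p022706, with 179.3 CPM and 188.5 CPM on day 16 and 119.3 CPM in YORK-09-10. Just outside, QL11p042250 had a ratio of 1.49, with 7.26 CPM and 6.13 CPM on day 16 and 4.10 CPM in HV-11-40. No gap separated members from the rest, since 66 members had a ratio of 1.5 to 1.6 and 106 further genes had 1.4 to 1.5.

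The number of members also depended on the scale. TMM scaling gave 303 genes, 299 of them among the 422, and median-ratio scaling gave 306, of which 304 were members. QL12p022706 dropped out under both, with ratios of 1.23 and 1.23. Without YORK-09-03 the rule would have found 1591 genes and without YORK-09-08 1420, so the second seedling removed most of what 1 seedling alone would give.

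Read depth allowed most members to be measured in other seedlings too. At least 1 read was counted in all of the other 10 seedlings for 289 members, and 163 members had at least 1 CPM in all of them. For 11 members each of the 10 had 3 counts or fewer, and 4 of these had 0 in every one. A count of 0 allows a level of up to 0.259 to 0.302 CPM, the value of 3 counts in these libraries. QL01p027485 was counted only on day 16, at 3.89 CPM in YORK-09-03 and 9.53 CPM in YORK-09-08. Its lower day-16 level was at least 12.9-fold higher than the level of 3 counts in the shallowest of the other libraries. QL03p055279 was also at 0 in the other 10, with 16.6 CPM in YORK-09-03 and 3.50 CPM in YORK-09-08, at least 11.6-fold higher on the same measure. These were the largest ratios among the members.

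The mean day-16 level ran from 1.14 to 621 CPM, with a median of 20.8 CPM and quartiles of 6.95 and 59.3 CPM. It was at least 10 CPM for 277 members, of which 64 had at least 100 CPM, and under 10 CPM for 145. CPM is not divided by gene length, so it compares seedlings and not the abundance of different transcripts. QL12p031860 had the highest mean, with 785 CPM in YORK-09-03 and 457 CPM in YORK-09-08. Outside day 16 it ranged from 3.62 CPM in LAY-15-30 to 262 CPM in HV-11-40, with 163 CPM in HV-11-05 and 93.7 CPM or less in the other 7. It thus varied widely among seedlings outside day 16 as well. The second highest mean was that of QL05p087547, at 465 CPM and 437 CPM on day 16, described with the YORK-09 seedlings of day 30.

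The identifiers of the members carry each of the 13 prefixes in the table. Of genes with 1 CPM or more in both day-16 seedlings, members were 1.53% (QL11, 19 members) to 4.73% (QL93, 8 members), and QL02 held the most, 57. In 33 places, a member was followed in the table by another member, which involved 63 members (14.9%) in 27 runs of 2 and 3 runs of 3. Across the 10 seedlings outside day 16, such neighbours had a median Pearson r of 0.654 on log2(CPM + 0.5), with a range of 0.02 to 0.992. The neighbours QL05p075077 and QL05p075122 had no correlation value and are left out of these figures. All pairs of members had a median of 0.176. Neither the share of neighbours nor their correlation was computed over all genes, so neither is shown to be particular to the members. The 10 points of each correlation share their libraries and depth, and how reads were counted where neighbouring genes overlap is uncertain. The closest neighbours, singled out after their values were seen, were QL12p029661 and QL12p029668. QL12p029661 had 462 CPM in YORK-09-03 and 285 CPM in YORK-09-08, and QL12p029668 had 375 CPM and 378 CPM. Outside day 16, both were counted at 13.8 CPM or more in the same 5 seedlings, HV-11-05, LAY-15-09, LAY-15-30, LAY-15-34 and YORK-09-37, where QL12p029661 reached 104 CPM and QL12p029668 95.2 CPM. In the other 5 seedlings neither exceeded 0.403 CPM, although these include members of the same 3 families and both treatments. A spread of this kind was seen in 29 members, which had at least 10 CPM in some of the 10 seedlings and 3 counts or fewer in another. The share of all genes with such a spread was not computed, so this number is a description only.

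**Figure D2:**
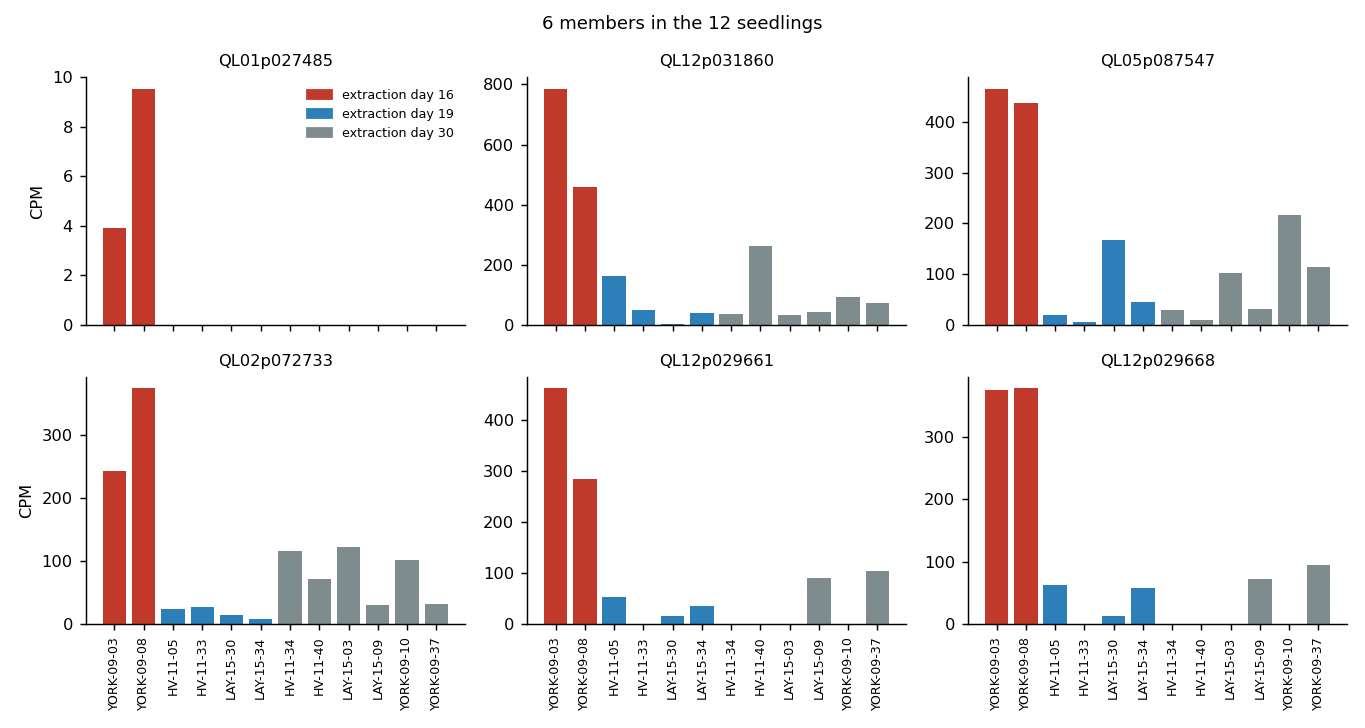
CPM (vertical axes, from 0, each with its own scale) of 6 members in the 12 seedlings, with bars coloured by extraction day. QL01p027485 was at 0 outside day 16, QL12p031860 and QL05p087547 had the highest day-16 means, QL02p072733 was lower on day 19 than on day 30, and QL12p029661 and QL12p029668 were near 0 in the same 5 seedlings.

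The 2 day-16 seedlings differed in treatment but had similar member levels. Of the 422 members, 182 were higher in the treated YORK-09-08 and 240 were lower, with a median log2 difference of -0.10, where all 18783 genes with 1 CPM in both had a median of 0.10. A total of 353 members (83.6%) lay within 2-fold in the pair, against 76.0% of the 18783 genes, and 256 lay within 1.5-fold. The requirement that both seedlings pass the ratio favours genes that are alike in the pair, so these shares are a description. Of the members beyond 2-fold, 24 were higher in the treated and 45 in the control seedling. QL11p021742 had the largest rise, from 4.93 CPM in YORK-09-03 to 43.8 CPM in YORK-09-08, with 0.194 to 2.55 CPM in the other 10 seedlings. QL03p070905 had the largest drop, from 215.9 to 40.7 CPM. It was also counted at 25.5 CPM in YORK-09-10 and 26.8 CPM in YORK-09-37, above the 0 to 12.4 CPM of the HV-11 and LAY-15 seedlings. With 1 seedling of each treatment on day 16, these 2 differences have no replicate.

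**Figure D3:**
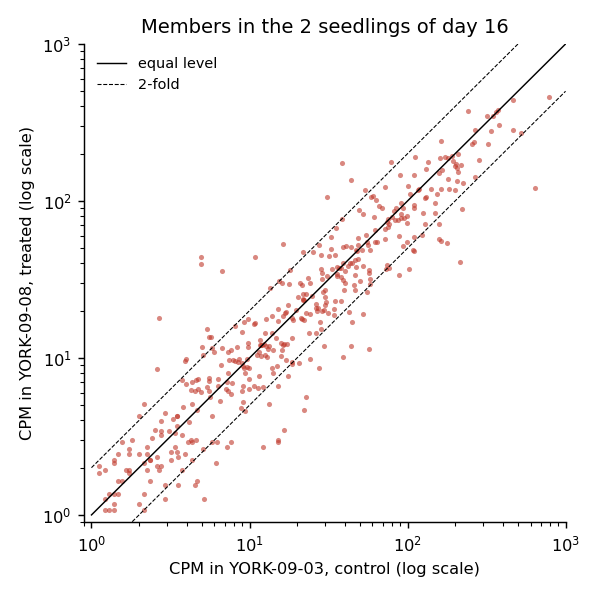
Level of each of the 422 members (points) in YORK-09-03, the control (horizontal axis), and YORK-09-08, the treated seedling (vertical axis), as CPM on log scales, with lines for equal levels and for 2-fold differences. Within the 2-fold lines lie 353 members, while 24 are above them and 45 below.

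Whether the members responded to 5-Azacytidine was tested over all 12 seedlings with edgeR's quasi-likelihood test. The model had the terms of the study's own, treatment and extraction day, with p-values adjusted over 23791 genes by the Benjamini-Hochberg method. The rule takes the lower of 1 control and 1 treated seedling and so favours neither treatment. The fit includes both day-16 seedlings, whose values chose the members. All 422 members passed the filter on low counts, which asks for 2 seedlings at its cutoff. Of these, 43 reached the cutoff in no other seedling than these 2. Members that reached it in only 1 other seedling also needed day 16 to pass and were not counted. None of the members changed with an adjusted p-value under 0.05 in edgeR (0 of 422, against 0% of all genes tested) or in DESeq2 (0 of 422, against 0.0967%). At an unadjusted p-value under 0.05 edgeR found 4 members higher in treated seedlings, where the share of all genes was 1.65%, and 10 lower, where it was 1.15%. In the 10 seedlings outside day 16, edgeR again had 0 of 379 members after adjustment, with 4 higher (2.01% of all genes) and 3 lower (1.43%) at an unadjusted p-value under 0.05. The median log2 difference over all 12 seedlings, treated minus control, was -0.08 over the members and -0.02 over all genes. Only 1 member was higher in the treated seedling of all 6 pairs (1.01% of all genes) and 9 were lower in all 6 (1.34%). Within pairs the median of the members, as log2(CPM + 0.5), ran from -0.35 in LAY-15 on day 30 to 0.24 in HV-11 on day 30, so the pairs did not share a direction.

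Of the members with the smallest p-values in this test, QL02p005448 was lower in the treated seedling of all 6 pairs. Its levels in control and treated seedlings were 13.2 and 5.06 CPM in YORK-09 on day 16, 0.952 and 0.357 CPM in YORK-09 on day 30, and 1.38 and 0.364 CPM in HV-11 on day 19. In HV-11 on day 30 they were 2.51 and 0.932 CPM, in LAY-15 on day 19 0.904 and 0.701 CPM, and in LAY-15 on day 30 1.51 and 0.0968 CPM. The log2 difference was -1.47 with a standard error of 0.49 (adjusted p = 1.00 with edgeR and 0.362 with DESeq2). Across pairs the control and treated levels overlapped. QL05p060863, with a log2 difference of -1.94 (standard error 0.72, adjusted p = 1.00 with edgeR), was also lower in CPM in the treated seedling of all 6 pairs. It went from 15.2 to 3.01 CPM on day 16 and from 0.571 to 0.536 CPM in YORK-09 on day 30. Both YORK-09 seedlings of day 30 had 6 counts of it, so that pair differed only by library size. On the other side, QL01p029547 had a log2 difference of 3.20 (standard error 1.26, adjusted p = 1.00 with edgeR), which rested on HV-11, with 2.19 CPM in HV-11-33 and 3.54 CPM in HV-11-40 against 0.0864 and 0.0898 CPM in the controls. QL02p096523 had a log2 difference of 0.52 (standard error 0.21, adjusted p = 1.00 with edgeR). With the 6 pairs as a block, edgeR again had 0 members under an adjusted p-value of 0.05 and DESeq2 had 1 (0.237%, against 0.256% of all genes), QL05p087547, whose log2 difference was -1.29 (adjusted p = 9.62e-04). It was lower in the treated seedling of every pair.

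The other YORK-09 seedlings were used to ask whether the members were also raised, to a lower level than on day 16, in this family on another day. The 10 seedlings outside day 16 entered the rule through a ceiling that was the same for all of them, and YORK-09 was compared with the mean of HV-11 and LAY-15 in a model with family, day and treatment. The ceiling reads the same counts as this test, so they are not fully independent of each other. A gene with a day-30 level in YORK-09 near its day-16 level could not be a member. The test therefore cannot count genes raised alike on both days, and it compares the members only below that ceiling. The filter on low counts left 379 members, and 43 had too few reads outside day 16. Of the 379, 4 passed only through the YORK-09 seedlings of day 30. The median log2 difference of the members, YORK-09 minus the other families, was 0.07, and that of all 25164 genes tested was -0.00. None passed an adjusted p-value of 0.05 with edgeR (0 of 379, against 0% of all genes), and 17 were higher and 7 lower in YORK-09 at an unadjusted p-value under 0.05, where 1.93% and 2.07% of all genes were. Without the filter the counts were 18 higher and 9 lower of 418 members, against 1.59% and 1.76% of all genes. DESeq2 called 5 members (1.05% of all genes), all of them higher in YORK-09, where 0.246% of all genes were called higher. On day 30 alone, both YORK-09 seedlings were above all 4 others for 32 members (3.86% of all genes) and below them for 24 (8.84%). The direction of the median depended on the family compared, at -0.14 against HV-11 and 0.24 against LAY-15. Without both LAY-15 seedlings of day 19, 27 of 375 members were higher (2.62% of all genes) and 8 lower (2.65%) at an unadjusted p-value under 0.05.

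QL05p087547 had the smallest p-value among the members. It was at 216.2 CPM in YORK-09-10 and 113.2 CPM in YORK-09-37. In HV-11 it had 5.46 to 28.3 CPM in the 4 seedlings, and in LAY-15 it had 30.7 and 102.5 CPM on day 30 and 45.8 and 166.4 CPM on day 19. On day 30 both YORK-09 seedlings were above all 4 others, but LAY-15-30 of day 19 exceeded YORK-09-37. The log2 difference was 2.50 with a standard error of 0.33 (adjusted p = 0.603 with edgeR and 2.52e-07 with DESeq2), and the adjusted p lay between 0.134 and 1.00 over the edgeR alternatives. Both day-16 levels, 465 and 437 CPM, were above these. QL09p051965, at 1.05 CPM in YORK-09-10 and 5.81 CPM in YORK-09-37, had 0 to 0.387 CPM in HV-11 and in LAY-15 on day 30, but 3.01 and 2.98 CPM in LAY-15 on day 19. Its log2 difference was 5.62 with a standard error of 1.13 (adjusted p = 1.00 with edgeR and 0.00208 with DESeq2).

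The other 3 members called by DESeq2 were named after their values were seen. QL03p008982 had 5.24 and 11.9 CPM in the YORK-09 seedlings of day 30 and 0.526 to 3.54 CPM in the other families. QL03p056484 had 21.2 and 24.7 CPM, against 15.4 CPM in each HV-11 seedling of day 30 and at most 16.3 CPM in any seedling of the other families. QL07p001183, with 3.43 and 2.05 CPM in YORK-09, was under HV-11-05, at 9.42 CPM, and LAY-15-30, at 4.02 CPM, both of day 19. In the opposite direction, QL07p042676 was at 1.43 and 1.88 CPM in YORK-09 on day 30 and at 2.61 to 9.47 CPM in all 8 seedlings of the other families, with no overlap, while its day-16 levels were 37.9 and 33.0 CPM. Its log2 difference was -1.66 (standard error 0.56, adjusted p = 1.00 with edgeR and 0.150 with DESeq2). QL02p082514 had 3.43 and 0.893 CPM in YORK-09 on day 30, against 3.87 to 11.4 CPM in the other families on that day, but 3 of the 4 day-19 seedlings, at 1.82 to 2.61 CPM, were below YORK-09-10. It had 28.6 and 34.8 CPM on day 16. Its log2 difference was -1.88 (standard error 0.65, adjusted p = 1.00 with edgeR).

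The highest level among the 10 seedlings outside day 16 is the value the rule took as its ceiling, so where it fell is a description. A gene that is high in any of the 10, such as the LAY-15 seedlings of day 19, is kept out. The highest of the 10 levels was in a day-30 seedling for 348 of the 418 members with any count there (83.3%), where 50.7% of genes had their highest level in those 6 seedlings. HV-11-40 had the highest level for 115 members, LAY-15-03 for 68, YORK-09-37 for 60, and HV-11-34 and YORK-09-10 for 44 each, while LAY-15-34 had it for 9. The YORK-09 seedlings together had it for 104 (24.9%, against 12.3% of genes). In LAY-15-30, 24 members (5.74%) had their highest level, where 24.5% of genes did.

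The difference between days 19 and 30 was tested in the same model, in which it comes from HV-11 and LAY-15. The ceiling of the rule reads the same counts as this test and is not neutral between the days. LAY-15-30, of day 19, held the highest level for 24.5% of genes, and the next, HV-11-40 of day 30, for 17.0%. Lower member levels on day 19 may thus come in part from the rule, and the size of that part was not tested. The median log2 difference, day 19 minus day 30, was -0.53 over 379 members and 0.03 over all genes. With edgeR 0 of 379 members passed an adjusted p-value of 0.05 (0% of all genes), and the smallest adjusted p-value of a member was 0.554. At an unadjusted p-value under 0.05, 42 members were lower on day 19, where 4.18% of all genes were, and 4 were higher, where 4.74% were. DESeq2 called 9 members (2.37%), 8 of them lower on day 19, and 2.27% of all genes. Of the members tested, 51 passed the filter through their day-30 counts only and 6 through their day-19 counts only. Without the filter, 48 of 418 members were lower and 3 higher, against 3.53% and 3.54% of all genes, and the median was -0.57.

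Both families showed lower member levels on day 19, among members chosen under the same ceiling. In HV-11 the summed level was 4111 CPM on day 19 and 5750 CPM on day 30 (means of 2 seedlings). The single sums were 4549 and 3673 CPM on day 19, and 4689 CPM in HV-11-34 and 6811 CPM in HV-11-40 on day 30. In this family 319 of the 422 members (75.6%) had the lower mean on day 19, as did 53.0% of the 18783 genes. In LAY-15 the mean sums were 3154 CPM and 4601 CPM, and 302 members (71.6%) had the lower mean on day 19, as did 51.2% of the genes. The single sums were 3440 and 2867 CPM on day 19, and 5526 CPM in LAY-15-03 and 3675 CPM in LAY-15-09 on day 30. Among the 379 members tested, the 2 day-19 seedlings were below both day-30 seedlings for 141 in HV-11 (37.2%, against 21.5% of all genes tested). They were below for 140 in LAY-15 (36.9%, against 22.9%) and in both families for 50 (13.2%, against 6.04%). They were above for 17 members in HV-11 (4.49%, against 14.6% of all genes tested), for 26 in LAY-15 (6.86%, against 22.6%), and in both for 4 (1.06%, against 3.15%). Fitted for HV-11 and LAY-15 separately, the median log2 difference was -0.47 and -0.60, but the share of members at an unadjusted p-value under 0.05 in either direction was near that of all genes, at 3.96% and 4.16% in HV-11 and 14.5% and 14.4% in LAY-15. The test of the difference between the families had 22 of 379 members at an unadjusted p-value under 0.05 with edgeR, where 8.65% of all genes were, and 0 after adjustment. The LAY-15 seedlings of day 19 stood apart from all others, and the ceiling keeps out genes that are high in them. With both left out of the fit, the day difference came from HV-11 alone. The members were still those chosen with both in the rule, so this fit does not undo the effect of the ceiling. The median was -0.45, and 11 of 375 members were lower on day 19 and 1 was higher at an unadjusted p-value under 0.05. The share of members under that p-value, 3.20%, was then below that of all genes, 5.70%. Of 24217 genes, 877 were lower and 503 higher.

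**Figure D4:**
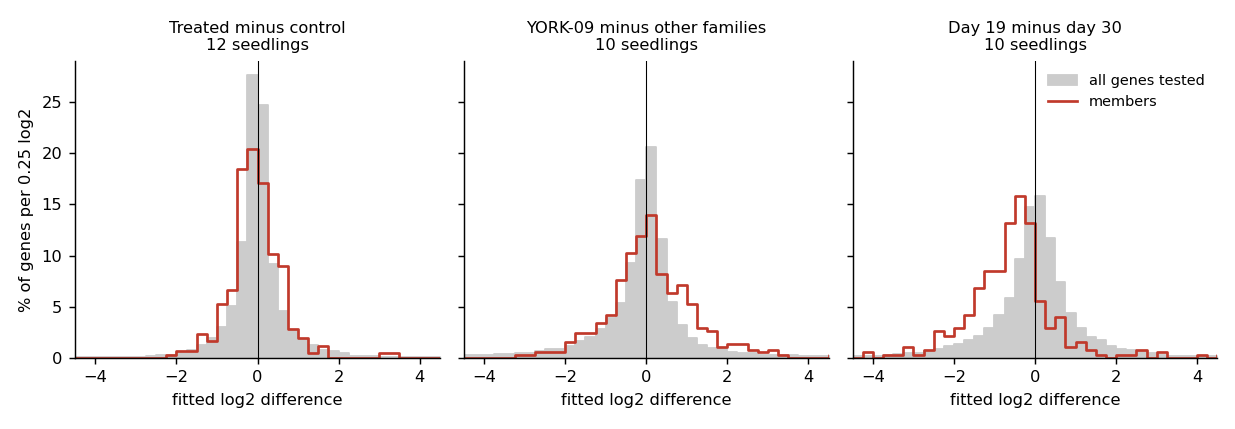
Fitted log2 differences of the members (red line) and of all genes tested (grey), as the percent of genes per 0.25 log2, for treated minus control, YORK-09 minus the other families outside day 16, and day 19 minus day 30. The medians of the members were -0.08, 0.07 and -0.53, and those of all genes -0.02, -0.00 and 0.03.

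QL02p072733 showed this difference in both families. On day 19 it had 24.0 and 27.5 CPM in HV-11 and 15.4 and 8.32 CPM in LAY-15. On day 30 it had 116.7 and 72.0 CPM in HV-11, 122.5 and 30.3 CPM in LAY-15 and 101.8 and 31.6 CPM in YORK-09. All 4 day-19 seedlings were below all 6 day-30 seedlings, and the day-16 seedlings, at 242.9 and 374.0 CPM, were above them. The log2 difference was -2.06 with a standard error of 0.40 (adjusted p = 0.554 with edgeR and 3.91e-04 with DESeq2). QL02p096523 had 4.495 to 8.83 CPM in the 4 day-19 seedlings and 9.23 to 19.7 CPM in the 6 day-30 seedlings, again with no overlap, and 41.8 and 38.6 CPM on day 16. Its log2 difference was -1.20 (standard error 0.27, adjusted p = 0.554 with edgeR and 0.00155 with DESeq2). The 4 members that were higher on day 19 include QL07p001183, with 9.42 and 2.00 CPM in HV-11 and 4.02 and 0.438 CPM in LAY-15 on day 19, against 1.44 and 0.652 CPM and 0.201 and 0.0968 CPM on day 30. Its log2 difference was 2.74 (standard error 0.60, adjusted p = 0.554 with edgeR and 0.00714 with DESeq2). QL04p087712 had 0.703 to 5.27 CPM on day 19 and 0.0968 to 0.280 CPM in the HV-11 and LAY-15 seedlings of day 30, but 2.86 CPM in YORK-09-10 and 0 in YORK-09-37 (log2 difference 4.08, standard error 1.30, adjusted p = 0.554 with edgeR).

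The spread of the members outside day 16 was wide. Their coefficient of variation over the 10 seedlings, on CPM, had a median of 0.672, and 21522 genes with a mean of at least 1 CPM had a median of 0.457. The 2 sets differ in their counts, and the part of low counts in this was not tested.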

How the data were processed

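Leaf RNA-seq of 12 seedlings was analysed from the deposited table of read counts per gene. The authors trimmed reads with Cutadapt 2.3, aligned them to the Q. lobata genome with STAR 2.7.1, removed multi-mapping reads (Samtools 1.9) and platform duplicates (Picard 2.20.3), and counted reads with HTSeq 0.11.1, without normalization. The strand option and annotation version were not given in the sources used here, so overlapping and antisense genes, and near-identical copies whose reads were removed, are uncertain. The authors' RNA came from single seedlings.

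CPM used column totals. edgeR 4.0.16 in R 4.3.3 was used for the tests (TMM, filterByExpr with a minimum count of 10 and a minimum total of 15, glmQLFTest), with DESeq2 1.42.0 as an alternative. The p-values of edgeR were adjusted over all genes tested. DESeq2 kept its default filtering, which leaves some genes without an adjusted p-value, and these were counted as not called. Between treatments they include the members QL09p051965 and QL12p029661. Standard errors were approximated as the log2 difference over the root of the test's F. The scripts were tested on simulated data. Figures used matplotlib 3.10.9.

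The members, tests and genes to name were chosen with earlier results of these data known. Named members are the 2 with the largest ratio to the other 10 seedlings (levels there set to at least 3 counts), the 2 with the highest day-16 mean, the extremes of treated over control on day 16, the 2 higher and the 2 lower with the smallest p-values in each test, and the genes on either side of the threshold.

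Pairs share family and extraction day by the labels. Deviations from treatment means correlated at 0.217 on average within pairs (0.0673 to 0.489), 0.0792 within a family across days and -0.0729 across families.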

Additional observations from a re-analysis of the deposited data

Results flagged for a closer look

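Dixon's criterion was applied to 44 groups of 4 or 6 seedlings. Some shared a treatment and compared library measures, and the others shared an extraction day and compared member levels. It flagged 6 groups, all by extraction day, in which 1 seedling stood far from the others. QL01p027485 and QL03p055279 were at 0 on days 19 and 30, so their groups could not be flagged. Chance meets the criterion in about 1 of 20 groups. The flags cannot be set against that share, since the named members were chosen for extreme values or small p-values. QL12p031860, the member with the highest day-16 mean, reached 262 CPM in HV-11-40, while the next day-30 seedling had 93.7 CPM. QL01p029547 had 3.54 CPM in HV-11-40, with 0.536 CPM next on day 30, and 2.19 CPM in HV-11-33, with 0.0864 CPM next on day 19. Both are the treated HV-11 seedlings. QL09p051965 had 5.81 CPM in YORK-09-37 and 1.05 CPM in the next seedling of day 30, and QL04p087712 had 2.86 CPM in YORK-09-10 and 0.280 CPM in the next. QL02p082514 had 8.73 CPM in HV-11-05 and 2.61 CPM in the next seedling of day 19.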

How the results depend on the processing

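No named member changed direction in its test under the alternatives run. The median log2 difference of the members ran from -0.15 to 0.01 between treatments, from -0.14 to 0.24 for YORK-09 and from -0.65 to -0.45 for day 19. The rule found 192 genes at a ratio of 2, 70 at 3, 318 with at least 5 CPM and 551 with no minimum, and 430 to 1591 genes when each seedling was left out in turn, the highest without YORK-09-03 and then 1420 without YORK-09-08. Between treatments, edgeR called 0 members in each fit, and members at an unadjusted p-value under 0.05 numbered 0 with no covariate (3.27% of all genes), 7 in the 10 seedlings outside day 16 (1.85%, all genes 3.44%) and 5 (without LAY-15-34) to 26 (without HV-11-40) with 1 seedling left out, where 2.38% and 3.49% of all genes were. This number, 14 in all seedlings, also fell to 7 without HV-11-33 or LAY-15-09, to 8 without YORK-09-08 or YORK-09-37 and to 9 without HV-11-05 or YORK-09-03. In these fits 2.57% to 3.71% of all genes were under that p-value. The fits with 1 seedling left out also tested more genes, 25149 to 25546 against 23791, since the filter on low counts passed more. With the 6 pairs as a replicate block, edgeR had 0 members after adjustment and 17 at an unadjusted p-value under 0.05 (4.03%, all genes 2.96%), and DESeq2, chosen after seeing the data, called 1 (0.237%, all genes 0.256%) and had 27 (6.40%, all genes 6.12%). Between YORK-09 and the other families, DESeq2 called 5 (1.32%, all genes 1.05%). On day 30 alone DESeq2, chosen after seeing the data, called 6 (1.61%, all genes 1.43%) and had 38 at an unadjusted p-value under 0.05 (10.2%, all genes 6.98%), and edgeR had 39 (10.46%, all genes 6.07%). With 1 seedling left out, edgeR had 14 (without HV-11-40, all genes 3.03%) to 31 (without LAY-15-09, all genes 4.22%). Between day 19 and day 30, DESeq2 called 9 (2.37%, all genes 2.27%) and had 84 at an unadjusted p-value under 0.05 (22.2%, all genes 14.8%). There edgeR had 15 in HV-11 alone (3.96%, all genes 4.16%), 12 without both LAY-15 seedlings of day 19, chosen after seeing the data (3.20%, all genes 5.70%), and 27 (without LAY-15-03, all genes 4.26%) to 78 (without HV-11-34, all genes 10.7%) with 1 seedling left out. The causes were not tested. No block of pairs was run for the tests of family and day, since each pair lies within 1 family and day. Low counts limit 43 members outside day 16.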
